A study of Homo sapiens with 24 samples.

Results

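Tryptophan that a cell does not use for protein is broken down mainly along the kynurenine pathway. TDO2 (tryptophan 2,3-dioxygenase, best known from liver) and IDO1 (indoleamine 2,3-dioxygenase, induced by interferon gamma) open the indole ring. AFMID then hydrolyses the product to kynurenine, KYNU (kynureninase) cleaves kynurenine and 3-hydroxykynurenine, KMO hydroxylates kynurenine, HAAO oxidises 3-hydroxyanthranilate, and QPRT turns the resulting quinolinate into a precursor of NAD. WARS, the cytosolic tryptophanyl-tRNA synthetase, loads the amino acid onto its tRNA and is itself a known interferon target. In macrophages the pathway is studied for its part in immune restraint, and kynurenine can bind the aryl hydrocarbon receptor.

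These 8 genes (TDO2, IDO1, AFMID, KYNU, KMO, HAAO, QPRT and WARS) were taken by name from a table of 55773 gene names, and all 8 were found in it. They were chosen with their behaviour under the inhibitor UNC0638 in view, so their values at its doses, and in the DMSO controls against the scrambled ones, are given as a description with no test. Enough counts to be tested were found for 7 of them, and IDO1 fell short.

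The cells were U937, an established human myelomonocytic line, and the data are 24 RNA-seq libraries in 8 groups of 3. A first set was cells with DMSO (labelled mock) or with UNC0638, an inhibitor of the histone H3 lysine 9 methyltransferases G9a and GLP, at 2 or 4 µM. The treated cells were harvested after 3 days. The second set was cells with a scrambled hairpin, hairpins 2 and 3 against G9a (gene EHMT2), or hairpins 2 and 4 against SUV39H1, another methyltransferase of the same lysine. The cells with hairpins against G9a or SUV39H1 were transduced with lentivirus and kept in puromycin for 3 days. The labels give no such times for DMSO or scrambled. The treated groups were set against DMSO and the hairpins against scrambled. Nothing says whether the 3 libraries of a group were separate cultures, so p-values measure the spread between these libraries, which may be technical.

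Levels are given as CPM, a gene's count scaled to a fixed total of counts on genes, which numbered 31545854 to 53803704. EHMT2 stood at 139.6 ± 8.75 CPM (SD, n = 3) with scrambled, 72.6 ± 2.70 with G9a hairpin 2 and 71.6 ± 3.51 with hairpin 3. SUV39H1 stood at 56.5 ± 1.52 CPM with scrambled, 19.3 ± 0.404 with SUV39H1 hairpin 2 and 22.4 ± 1.85 with hairpin 4. All 10 myeloid markers were measured in every group, but their summed level differed between groups: 906.6 to 921.9 CPM with scrambled, 1391 to 1468 with the G9a hairpins, 2041 to 2062 with SUV39H1 hairpin 4 and 3325 to 3382 with SUV39H1 hairpin 2, against 741.4 to 798.8 with DMSO or UNC0638. LYZ (lysozyme) made up most of that range, from 265.2 to 2594 CPM over the libraries. Other markers varied too: ITGAM ran from 47.5 to 293.3 CPM, CD68 from 15.3 to 55.1, FCGR1A from 14.0 to 31.3 and CSF1R from 4.12 to 14.6. MPO ran from 0.526 to 1.95 CPM and CD14 from 0.0957 to 0.729. The ranges of CD33 (85.1 to 120.8), SPI1 (120.1 to 168.2) and CEBPA (122.8 to 178.0) were narrower. Of 4 lymphoid markers, CD79A, a B-cell receptor component, ran from 3.31 to 25.6 CPM and CD3D, CD3E and MS4A1 reached at most 0.0502 CPM. The sum of the 4 was 16.2 to 19.4 CPM with scrambled, 3.31 to 4.17 with the G9a hairpins, 10.5 to 11.3 with SUV39H1 hairpin 2 and 14.8 to 16.4 with hairpin 4. The part of these shifts in the results with the hairpins was not tested. Of 8 hepatocyte markers, relevant because TDO2 is a liver enzyme, ALB reached at most 0.0431 CPM, TTR had 0 counts in every library, and SERPINA1, which monocytes also make, gave 36.1 to 79.0 CPM. In bulk RNA, a change in the share of cells expressing a gene and a change in RNA per cell cannot be told apart.

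The 250 bases before the gene start are shown for KYNU and TDO2, which moved most at the inhibitor's doses, and for the WARS start that holds interferon-type motifs. The search covered 4 motifs on both strands from 250 bases before to 50 bases after each start in 35116 RefSeq promoters (GRCh38.p14): the interferon-stimulated response element core (ISRE, here a GAAA run repeated after any 2 bases, in 3.57% of them), the gamma-activated site (GAS, TTCNNNGAA, in 7.66%), a TATA box (TATAAA, in 11.5%) and a PU.1-type site (GAGGAAGT, in 2.59%). Capitals mark the matches. Sequences were read 5′ to 3′ along the gene's strand, at chr2:142877414-142877663 (plus) for KYNU, chr4:155903446-155903695 (plus) for TDO2 and chr14:100375348-100375597 (minus) for the second WARS start (WARS1 in RefSeq).
KYNU: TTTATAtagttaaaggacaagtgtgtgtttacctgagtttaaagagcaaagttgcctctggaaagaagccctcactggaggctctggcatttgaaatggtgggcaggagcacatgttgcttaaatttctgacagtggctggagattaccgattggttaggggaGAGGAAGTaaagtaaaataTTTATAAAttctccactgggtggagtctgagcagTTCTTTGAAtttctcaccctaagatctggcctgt
TDO2: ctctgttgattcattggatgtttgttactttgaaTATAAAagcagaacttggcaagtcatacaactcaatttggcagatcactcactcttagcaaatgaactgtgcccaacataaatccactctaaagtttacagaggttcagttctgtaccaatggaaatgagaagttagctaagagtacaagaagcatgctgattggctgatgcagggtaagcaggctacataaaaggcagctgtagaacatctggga
WARS, second start: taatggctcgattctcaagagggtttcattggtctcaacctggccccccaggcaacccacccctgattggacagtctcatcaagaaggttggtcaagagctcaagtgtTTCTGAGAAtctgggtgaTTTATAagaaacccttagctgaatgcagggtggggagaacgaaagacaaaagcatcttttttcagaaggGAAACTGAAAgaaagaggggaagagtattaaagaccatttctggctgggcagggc

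KYNU held a GAS match beginning at -34 and another beginning at 6 bases after the start, a PU.1-type match at -87 and TATA matches at -250, -68 and -66, the first 2 on the other strand and the last 2 overlapping. TDO2 held a TATA match at -216 alone. The second WARS start held an ISRE match at -55, a GAS match at -142 and a TATA match on the other strand at -124, and its first start held none of the 4 motifs. KMO and AFMID held only a TATA match, at -29 and -31, and HAAO and QPRT held none. No binding was measured here, so a match is only a description of the letters. Promoters are reported here for 7 of the 8 genes, and IDO1 is not among them.

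In the gene table, which is on hg19, the members lay at chr4:156775890-156841558 (TDO2, plus), chr8:39759794-39785963 (IDO1, plus), chr17:76183398-76203782 (AFMID, plus), chr2:143635067-143799890 (KYNU, plus), chr1:241695434-241758944 (KMO, plus), chr2:42994229-43019733 (HAAO, minus), chr16:29674600-29710020 (QPRT, plus) and chr14:100800125-100843142 (WARS, minus). The TDO2 interval, 65669 bases, was 3.93 times its RefSeq span, and those of QPRT and IDO1 were 1.80 and 1.76 times theirs. Counts under these 3 names may include reads from outside the RefSeq gene. The kit does not mark strand, and 3 members overlapped an expressed neighbour. KMO shared 5541 bases with OPN3 on the other strand (15.2 to 26.8 CPM over the libraries), QPRT shared 7588 bases with SPN on the same strand (255.8 to 341.4 CPM), and WARS shared 20272 bases with RP11-638I2.8 on the other strand (3.81 to 9.26 CPM). Reads in the shared stretches cannot be assigned with certainty.

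Per kilobase of the deposited gene length, the members spanned a wide range of levels in the scrambled cells. WARS stood at 19.1 ± 0.515 CPM per kilobase (SD, n = 3), QPRT at 4.41 ± 0.190, HAAO at 3.57 ± 0.368, AFMID at 2.36 ± 0.244 and KMO at 2.02 ± 0.131. KYNU stood at 0.432 ± 0.105 and TDO2 at 0.0825 ± 0.0119 CPM per kilobase, and IDO1 had 0 counts. The enzymes after ring opening, other than KYNU, thus stood above KYNU and the ring-opening enzymes on this scale.

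**Figure D1:**
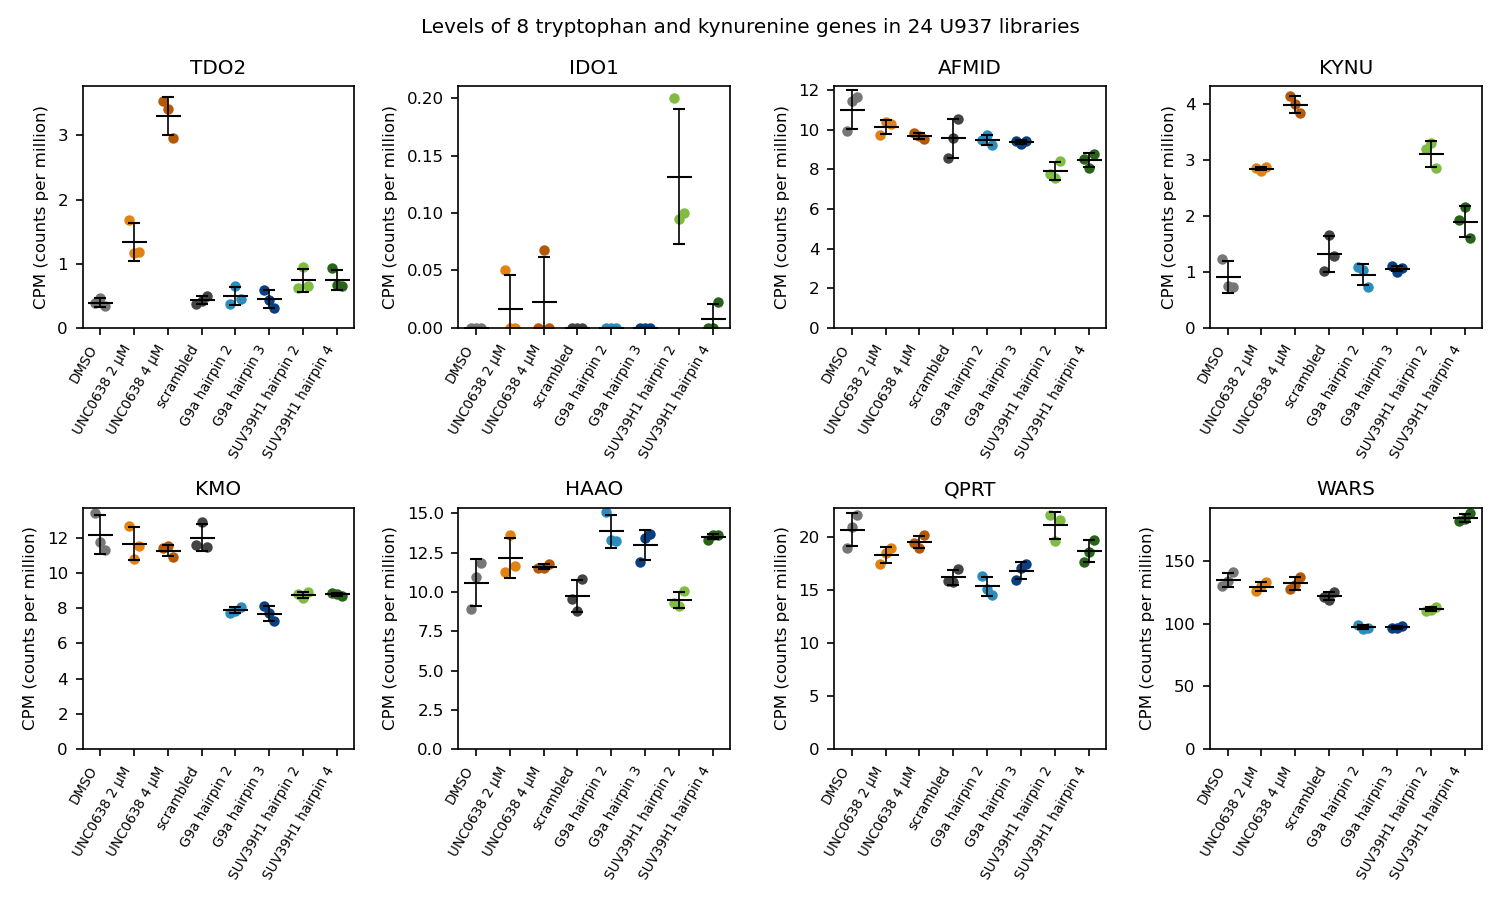
CPM (vertical axes from 0) of each of the 8 genes in each of the 24 libraries, by group. Points are libraries and bars are the mean ± SD of 3. KYNU and TDO2 step up from DMSO to 2 and 4 µM UNC0638, IDO1 is seen in all 3 libraries only with SUV39H1 hairpin 2, and WARS is highest with SUV39H1 hairpin 4.

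With UNC0638, the ring-opening enzyme TDO2 and the kynurenine-cleaving enzyme KYNU were higher at both doses, and the other 5 measured members stayed within 0.20 of DMSO on the log2 scale. TDO2 was at 0.382, 0.471 and 0.335 CPM in the 3 DMSO libraries, 1.68, 1.16 and 1.19 CPM at 2 µM, and 3.54, 3.41 and 2.97 CPM at 4 µM. The 3 groups did not overlap. The fitted log2 difference from DMSO was 1.78 ± 0.23 (SE) at 2 µM and 3.09 ± 0.19 at 4 µM, and 1.31 ± 0.14 between the doses.

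KYNU was at 1.24, 0.754 and 0.732 CPM with DMSO, 2.86, 2.81 and 2.87 CPM at 2 µM, and 4.14, 4.00 and 3.83 CPM at 4 µM. Here too the 3 groups lay apart from one another. Its fitted log2 difference from DMSO was 1.63 ± 0.16 at 2 µM and 2.12 ± 0.15 at 4 µM, and 0.49 ± 0.12 between the doses.

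The pair differed in the shape of the dose pattern. KYNU gained 1.94 ± 0.287 CPM (SD of the difference) from DMSO to 2 µM and 1.14 ± 0.159 CPM from 2 to 4 µM, while TDO2 gained 0.948 ± 0.302 CPM in the first step and 1.96 ± 0.420 CPM in the second. In ratio to DMSO, KYNU was at 3.14 times and then 4.40 times, and TDO2 at 3.39 times and then 8.35 times. Over all 20147 genes tested, 7.17% were called (Benjamini-Hochberg adjusted p under 0.05, edgeR quasi-likelihood test) at 2 µM, 19.9% at 4 µM and 1.84% between the doses. Those shares are background only, since the members were chosen on these contrasts.

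Of the remaining members, AFMID was at 11.0 ± 0.962 CPM with DMSO and 9.69 ± 0.157 CPM at 4 µM (log2 difference -0.18 ± 0.07), with all 3 treated libraries below all 3 controls. KMO (-0.10 ± 0.06), HAAO (0.14 ± 0.09), QPRT (-0.07 ± 0.06) and WARS (-0.02 ± 0.04) overlapped DMSO at 4 µM. QPRT lay below DMSO in all 3 libraries at 2 µM (-0.18 ± 0.06). Its overlapping neighbour SPN was at -0.14 ± 0.05 at 2 µM (adjusted p = 0.0933, edgeR) and -0.16 ± 0.05 at 4 µM (adjusted p = 0.0174). What SPN reads add to QPRT was not tested. IDO1 had 0 counts in the DMSO libraries, 2 counts at 2 µM and 3 counts at 4 µM, each dose in a single library. That is at or under the floor of 3 counts over a group, so no fold is given.

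The control groups themselves stood apart for some members. KYNU was at 1.02, 1.67 and 1.29 CPM with scrambled (log2 difference from DMSO 0.60 ± 0.19, ranges overlapping). That difference was 0.38 without scrambled replicate 2 and 0.92 without DMSO replicate 1. QPRT was at 15.9, 15.8 and 17.0 CPM with scrambled against 19.0, 20.9 and 22.1 CPM with DMSO (-0.32 ± 0.06, not overlapping). Of all genes, 31.4% were called between these controls.

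**Figure D2:**
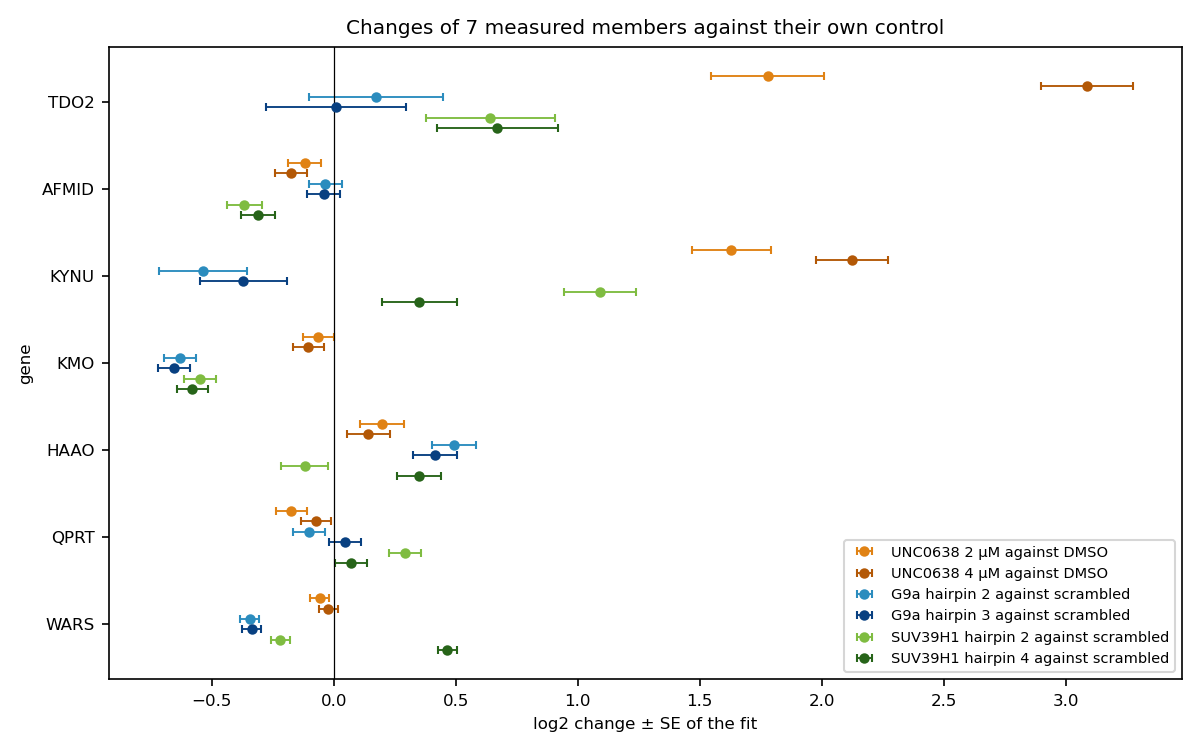
Fitted log2 change (horizontal axis) ± SE of the 7 tested genes for each UNC0638 dose against DMSO and each hairpin against scrambled, 3 libraries a group. TDO2 reaches 3.09 and KYNU 2.12 at 4 µM, KMO lies between -0.66 and -0.55 with all 4 targeting hairpins, and WARS is negative with 3 of those hairpins and 0.47 with SUV39H1 hairpin 4.

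With the G9a hairpins, KMO and WARS fell, HAAO rose, and neither KYNU nor TDO2 rose. The lymphoid marker sum, nearly all CD79A, was 3.31 to 4.17 CPM there against 16.2 to 19.4 with scrambled. The myeloid sum was 1391 to 1468 CPM against 906.6 to 921.9. Against scrambled, with both hairpins averaged, 1 of the 7 tested members was higher and 3 were lower, where 49.9% of all genes were called. Singly, hairpin 2 gave the same counts and hairpin 3 gave 1 higher and 2 lower, where 44.4% and 44.7% of all genes were called. KMO was at 11.6, 12.9 and 11.5 CPM with scrambled, 7.72, 7.86 and 8.06 CPM with hairpin 2, and 8.12, 7.70 and 7.25 CPM with hairpin 3. All 6 knockdown libraries lay below all 3 controls, and the log2 change was -0.64 ± 0.06 (adjusted p = 4.08e-10, edgeR). The overlapping gene OPN3 fell with it (-0.71 ± 0.04, adjusted p = 4.30e-14), and what its reads add to KMO was not tested.

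HAAO, which makes the precursor of quinolinate, was at 9.58, 8.83 and 10.8 CPM with scrambled, 15.1, 13.3 and 13.2 CPM with G9a hairpin 2, and 11.9, 13.4 and 13.7 CPM with hairpin 3. The groups did not overlap, and the log2 change was 0.45 ± 0.08 (adjusted p = 2.72e-05, edgeR). WARS was at 121, 119 and 125 CPM with scrambled against 99.1, 96.0 and 96.4 CPM with hairpin 2 and 96.2, 96.3 and 98.3 CPM with hairpin 3, a log2 change of -0.34 ± 0.03 (adjusted p = 4.93e-09, edgeR).

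KYNU was at 1.09, 1.03 and 0.733 CPM with G9a hairpin 2 and 1.11, 1.01 and 1.07 CPM with hairpin 3, ranges that overlapped scrambled. The averaged log2 change was -0.45 ± 0.15 (adjusted p = 0.0164, edgeR). This call rested on the highest control, scrambled replicate 2: without that library it was -0.23 with an adjusted p of 0.321. Per hairpin it passed for hairpin 2 (-0.54 ± 0.18, adjusted p = 0.0179, edgeR), but not without scrambled replicate 2 (-0.31, adjusted p = 0.232) or without its own replicate 3 (-0.39, adjusted p = 0.110). For hairpin 3 it did not pass (-0.37 ± 0.18, adjusted p = 0.0941), but did without scrambled replicate 1 (-0.50, adjusted p = 0.0299), and was -0.15 without scrambled replicate 2. TDO2 was at 0.379, 0.652 and 0.449 CPM with hairpin 2 and 0.589, 0.441 and 0.306 CPM with hairpin 3, overlapping the 0.380, 0.421 and 0.503 CPM of scrambled (log2 change 0.09 ± 0.24, adjusted p = 0.788). AFMID (-0.04 ± 0.06, adjusted p = 0.622) and QPRT (-0.03 ± 0.06, adjusted p = 0.720) did not pass either, while SPN, which overlaps QPRT, fell (-0.17 ± 0.04, adjusted p = 0.00154, edgeR).

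Set side by side for this pair of genes, at 4 µM the log2 difference from DMSO was 2.12 for KYNU and 3.09 for TDO2, and with the G9a hairpins the log2 change from scrambled was -0.45 and 0.09. Each has its own control, and the difference between those responses was not tested because the members were chosen on the inhibitor. UNC0638 left EHMT2 RNA at 130.6 ± 8.26 CPM at 4 µM against 144.7 ± 17.2 with DMSO (log2 change -0.14 ± 0.06, adjusted p = 0.130, edgeR), while the hairpins lowered it by 0.97 ± 0.05 on the log2 scale. The G9a hairpins 2 and 3 differed in 0 of 7 members by edgeR, where 0.00993% of all genes were called, and DESeq2 also called 0. QPRT alone was under an unadjusted 0.05 between them, with a log2 difference of 0.15 ± 0.07 (hairpin 3 minus hairpin 2).

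With the SUV39H1 hairpins, KYNU, TDO2, QPRT and WARS were higher on average and AFMID and KMO were lower, 6 of 7 members, where 67.8% of all genes were called. Singly, hairpin 2 gave 3 higher and 3 lower and hairpin 4 gave 3 higher and 2 lower, where 67.1% and 60.9% of all genes were called. KYNU was at 3.19, 3.30 and 2.85 CPM with hairpin 2, all above scrambled, and at 1.93, 2.16 and 1.61 CPM with hairpin 4, overlapping it. The averaged log2 change was 0.72 ± 0.13 (adjusted p = 3.20e-05, edgeR). It was 1.09 ± 0.15 with hairpin 2 (adjusted p = 2.95e-07) and 0.35 ± 0.15 with hairpin 4, where it missed the threshold (adjusted p = 0.0521). The hairpin 4 value was 0.22 without scrambled replicate 1 (adjusted p = 0.240) and 0.57 without scrambled replicate 2 (adjusted p = 0.00702). It passed under the replicate block (adjusted p = 0.0406), with no low-count filter (0.0318) and with library totals only (0.00987).

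TDO2 was at 0.624, 0.951 and 0.650 CPM with SUV39H1 hairpin 2 and 0.929, 0.669 and 0.658 CPM with hairpin 4, each library above the highest scrambled one. The averaged log2 change was 0.66 ± 0.22 (adjusted p = 0.0122, edgeR), with 0.64 ± 0.26 for hairpin 2 (adjusted p = 0.0340) and 0.67 ± 0.25 for hairpin 4 (adjusted p = 0.0213). At these low counts the averaged call was lost without scrambled replicate 2 (0.62, adjusted p = 0.0551). The hairpin 2 call was lost without scrambled replicate 1, scrambled replicate 2 or its own replicate 2 (adjusted p 0.0873, 0.0925 and 0.176), and the hairpin 4 call without scrambled replicate 1, scrambled replicate 2 or its own replicate 1 (adjusted p 0.0627, 0.0719 and 0.143).

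IDO1 had 8, 3 and 4 counts in the 3 libraries of SUV39H1 hairpin 2 and 0 counts in all scrambled and G9a hairpin libraries. Pooled over its libraries this was 0.134 CPM (95% Poisson interval 0.0752 to 0.222, counting error only). The pooled value was 5.75 times the floor of 3 counts over the scrambled group, a ratio that leaves out its own counting error. Hairpin 4 had 1 count. IDO1 did not pass the low-count filter. In the fit with no filter, hairpin 2 differed from scrambled (adjusted p = 0.00038, edgeR) and from hairpin 4 (adjusted p = 0.00226), and hairpin 4 did not pass against scrambled (adjusted p = 0.577).

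Among the downstream enzymes, KMO was at 8.78, 8.59 and 8.90 CPM with SUV39H1 hairpin 2 and 8.88, 8.80 and 8.71 CPM with hairpin 4. All 6 libraries lay below scrambled, and the log2 change was -0.56 ± 0.06 (adjusted p = 1.11e-09, edgeR), again beside a fall of OPN3 (-0.78 ± 0.04, adjusted p = 1.38e-15). AFMID fell by 0.34 ± 0.06 on the log2 scale (adjusted p = 1.73e-05), to 7.90 ± 0.446 CPM with hairpin 2 and 8.46 ± 0.362 CPM with hairpin 4 from 9.56 ± 0.987 CPM. QPRT rose by 0.18 ± 0.06 on average (adjusted p = 0.00615), with 0.29 ± 0.06 for hairpin 2 (adjusted p = 0.00029) and 0.07 ± 0.06 for hairpin 4, which did not pass (adjusted p = 0.351), while the neighbour SPN that shares its 5′ stretch did not pass (0.02 ± 0.04, adjusted p = 0.733). HAAO missed the threshold on average (0.11 ± 0.08, adjusted p = 0.210).

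The hairpins against SUV39H1 differed from each other in 4 of the 7 members, where 42.9% of all genes were called. KYNU was lower with hairpin 4 than with hairpin 2 by a log2 change of -0.74 ± 0.13 (adjusted p = 5.93e-05, edgeR), and QPRT by -0.22 ± 0.06 (adjusted p = 0.00566, lost without hairpin 4 replicate 1, -0.17 with an adjusted p of 0.0705). HAAO was at 9.31, 9.13 and 10.1 CPM with hairpin 2 and 13.3, 13.6 and 13.6 CPM with hairpin 4, a log2 change of 0.47 ± 0.09 (adjusted p = 1.28e-04). SUV39H1 RNA was near in both (0.18 ± 0.07 higher with hairpin 4, adjusted p = 0.0382), and SUV39H2 was 0.60 ± 0.07 higher with hairpin 4 than with hairpin 2 (adjusted p = 6.93e-08). Against scrambled, SUV39H2 fell with both hairpins (log2 change -1.23 ± 0.07 with hairpin 2 and -0.62 ± 0.06 with hairpin 4), as did EHMT1, the gene of GLP (-0.65 ± 0.05 and -0.48 ± 0.04). EHMT2, the gene of G9a, was lower as well, at -0.41 ± 0.06 with hairpin 2 (adjusted p = 3.82e-06, edgeR) and -0.16 ± 0.06 with hairpin 4 (adjusted p = 0.0295). It was 0.24 ± 0.06 higher with hairpin 4 than with hairpin 2 (adjusted p = 0.00305). The myeloid marker sum was 3325 to 3382 CPM with hairpin 2 and 2041 to 2062 CPM with hairpin 4, and its part in these results was not tested.

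WARS differed in sign between these hairpins. It was at 110, 111 and 113 CPM with SUV39H1 hairpin 2, below every scrambled library (log2 change -0.22 ± 0.04, adjusted p = 2.63e-05, edgeR), and at 181, 183 and 188 CPM with hairpin 4, above all of them (0.47 ± 0.04, adjusted p = 1.05e-10). Hairpin 4 was 0.68 ± 0.04 above hairpin 2 (adjusted p = 1.46e-13).

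The 19 other cytosolic aminoacyl-tRNA synthetases, the enzymes that load the remaining amino acids, are set beside WARS. All 19 were lower with SUV39H1 hairpin 2, where 67.1% of all genes were called, with a median log2 change of -0.59 (median of all genes 0.02), led by FARSB (-1.27) and KARS (-1.13), and 4 of the 19 had values above that of WARS. With hairpin 4, where 60.9% of all genes were called, 4 were higher and 11 lower (median -0.19), and 2 had values above that of WARS. Between the hairpins, where 42.9% of all genes were called, 16 were higher with hairpin 4 and 0 lower (median 0.44), among them AARS (0.71), GARS (0.68) and IARS (0.64), and AARS alone exceeded WARS. With the G9a hairpins, where 49.9% of all genes were called, 1 was higher and 15 lower (median -0.24), with 5 below WARS. The mitochondrial counterpart WARS2 fell with the SUV39H1 hairpins (-0.82 ± 0.04, adjusted p = 9.80e-16, edgeR) and did not pass with the G9a hairpins (-0.04 ± 0.04, adjusted p = 0.470). Of the 17 mitochondrial synthetases, 16 were lower and 0 higher with the averaged SUV39H1 hairpins (median -0.50), where 67.8% of all genes were called.

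**Figure D3:**
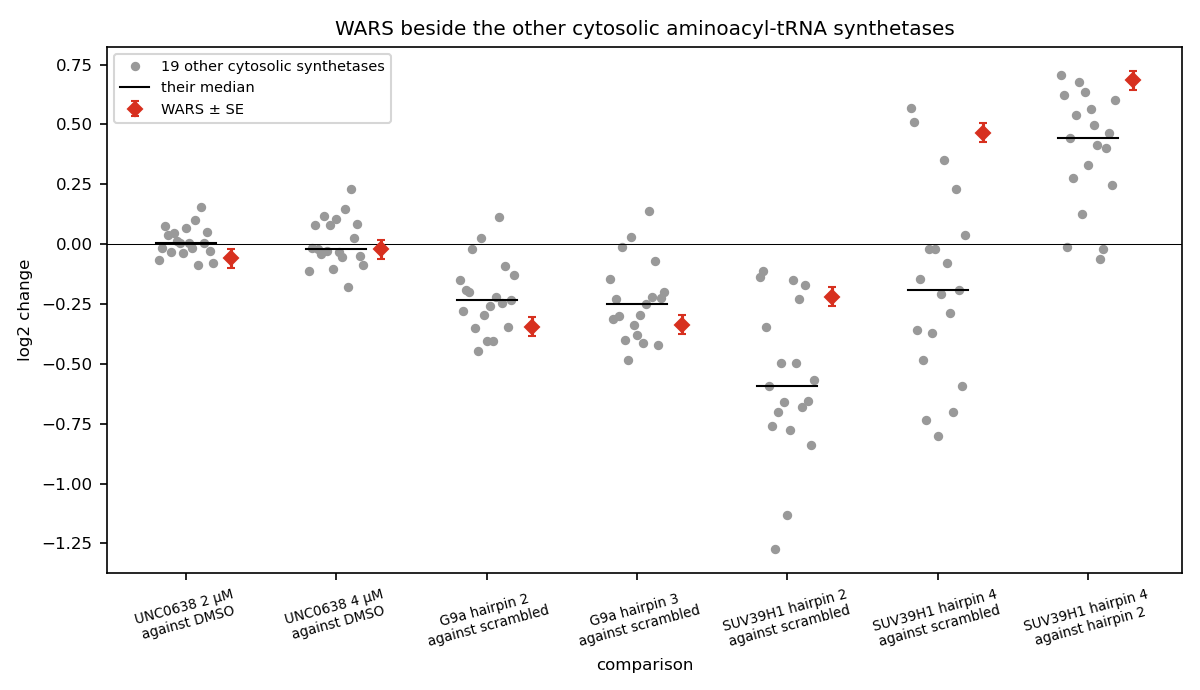
Fitted log2 change (vertical axis) of WARS (diamond, ± SE) beside the 19 other cytosolic aminoacyl-tRNA synthetases (points, line at their median) in 7 comparisons. WARS sits above the medians of -0.59 and -0.19 with SUV39H1 hairpins 2 and 4, and below the median of -0.24 with the G9a hairpins averaged, of which each hairpin is drawn.

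Set against each other, the G9a hairpins gave lower KYNU (-1.18 ± 0.11, adjusted p = 8.31e-10, edgeR), TDO2 (-0.57 ± 0.18, adjusted p = 0.00669), QPRT and WARS than the SUV39H1 hairpins, and higher AFMID and HAAO (0.34 ± 0.06, adjusted p = 3.05e-05). That was 6 of 7 members, where 65.5% of all genes were called. KMO did not pass (-0.08 ± 0.05, adjusted p = 0.155). For HAAO, the libraries of SUV39H1 hairpin 2 (9.13 to 10.1 CPM) lay below every G9a library. With SUV39H1 hairpin 4, HAAO was at 13.3 to 13.6 CPM. In CPM, before the fit's scaling, that lay inside the ranges of G9a hairpin 2 (13.2 to 15.1 CPM) and hairpin 3 (11.9 to 13.7 CPM). The fitted HAAO changes from scrambled were 0.45 ± 0.08 with the averaged G9a hairpins and 0.35 ± 0.09 with SUV39H1 hairpin 4. The G9a hairpins were not tested against each SUV39H1 hairpin singly. For QPRT the difference was -0.21 ± 0.05 (adjusted p = 0.000242), beside -0.19 ± 0.03 for its overlapping neighbour SPN (adjusted p = 3.49e-05, edgeR). What SPN reads add to QPRT was not tested. Plain CPM sits slightly above the fitted changes for the SUV39H1 hairpins, because the fit's scaling factors were 1.03 to 1.07 for them and 0.968 to 0.975 for scrambled. With library totals in place of that scaling, chosen after the data were seen, the median log2 change of all genes for the averaged SUV39H1 hairpins went from 0.03 to 0.14, and the share of calls that were higher from 51.8% to 63.5%. No called member changed direction.

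The wider pathway was followed with 110 genes in 9 lists, of which 92 were tested. The lists were chosen with earlier results of these data known, so their shares beside those of all genes are a description. At 4 µM UNC0638, 18 were higher and 9 lower (29.3%, against 19.9% of all genes). These 27 calls became 17 without DMSO replicate 3, 38 without DMSO replicate 1 and 16 with the compared libraries alone. With the averaged G9a hairpins 21 were higher and 50 lower (77.2%, against 49.9%), and with the averaged SUV39H1 hairpins 33 were higher and 50 lower (90.2%, against 67.8%). The median log2 change of these 92 genes was 0.02, -0.16 and -0.26 in the same order, and that of all genes -0.01, 0.01 and 0.03.

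Genes around kynurenine itself moved in different directions. IL4I1, a secreted oxidase of tryptophan and other aromatic amino acids, was at 13.6 CPM with DMSO and 19.5 CPM at 4 µM (0.52 ± 0.08, adjusted p = 4.21e-05, edgeR), and rose from 11.6 CPM with scrambled to 28.5 CPM with the SUV39H1 hairpins (1.18 ± 0.08, adjusted p = 1.84e-13). AHR, the receptor that kynurenine can bind, rose at 4 µM (0.45 ± 0.07, adjusted p = 1.79e-05) and with the averaged SUV39H1 hairpins (0.31 ± 0.06, adjusted p = 4.36e-05), and fell with the G9a hairpins (-0.19 ± 0.06, adjusted p = 0.0103). AHR was at 20.1 CPM with scrambled, 30.5 CPM with SUV39H1 hairpin 2 and 23.6 CPM with hairpin 4. Those hairpins differed (-0.41 ± 0.07, hairpin 4 minus hairpin 2, adjusted p = 1.11e-05, edgeR). GOT2, an aminotransferase that can act on kynurenine, fell with the G9a (-0.55) and the SUV39H1 hairpins (-0.74). Of the 8 tested genes of this list, 2 were higher and 1 lower at 4 µM, 0 and 5 with the G9a hairpins, and 3 and 3 with the SUV39H1 hairpins, where 19.9%, 49.9% and 67.8% of all genes were called. In the serotonin branch 2 of 7 genes were tested: DDC, which decarboxylates aromatic amino acids, was 0.66 ± 0.21 higher at 4 µM (adjusted p = 0.0259) and fell with the G9a hairpins (-0.89 ± 0.22, adjusted p = 0.00144). DDC also fell with the averaged SUV39H1 hairpins, from 0.715 to 0.556 CPM (-0.47 ± 0.21, adjusted p = 0.0465, edgeR), but passed with neither alone. TPH1, the other tested gene, rose there from 0.418 to 0.654 CPM (0.58 ± 0.24, adjusted p = 0.0363), and singly passed with hairpin 4 alone.

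Of 9 listed targets of the aryl hydrocarbon receptor, 5 were tested. All 5 rose with the averaged SUV39H1 hairpins (median 0.31, where 67.8% of all genes were called) and with SUV39H1 hairpin 2 alone (median 0.41, 67.1%), while with hairpin 4 alone 3 rose and 2 did not pass (median 0.20, 60.9%). With the G9a hairpins 3 rose and 2 did not pass (median 0.23, where 49.9% of all genes were called), a share near that of all genes. At 4 µM 1 rose and 1 fell (median 0.11, 19.9%). CYP1A1, the classical target, was at 3.94 CPM with scrambled, 21.6 CPM with the SUV39H1 hairpins (2.34 ± 0.08, adjusted p = 5.30e-19, edgeR) and 6.43 CPM with the G9a hairpins (0.69 ± 0.09, adjusted p = 3.72e-07). NQO1, which other stress pathways also control, rose by 0.75 ± 0.03 and 0.23 ± 0.03. With the SUV39H1 hairpins singly, NQO1 rose by 1.27 ± 0.04 for hairpin 2 and 0.24 ± 0.04 for hairpin 4.

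Uptake of tryptophan runs mainly through SLC7A5 with its partner SLC3A2. Both fell with the G9a hairpins, SLC7A5 from 473 to 302 CPM (-0.66 ± 0.05, adjusted p = 1.51e-10, edgeR) and SLC3A2 from 204 to 147 CPM (-0.48 ± 0.04, adjusted p = 1.87e-11), and 7 of the 10 tested transporters were lower and 1 higher (median -0.31, where 49.9% of all genes were called). With the SUV39H1 hairpins 2 were higher and 7 lower (median -0.45, 67.8% of all genes). SLC7A11, the cystine exchanger, rose from 20.0 to 64.0 CPM there (adjusted p = 8.96e-19, edgeR) and fell to 10.8 CPM with the G9a hairpins (-0.91 ± 0.06), and SLC16A10, an aromatic amino acid carrier, fell from 28.4 to 16.3 CPM with the SUV39H1 hairpins (-0.96 ± 0.05). At 4 µM 3 transporters were higher and 0 lower, where 19.9% of all genes were called.

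QPRT feeds the synthesis of NAD, which is also made by salvage. NAMPT, the main salvage enzyme, was at 119 CPM with DMSO and 165 CPM at 4 µM (0.48 ± 0.06, adjusted p = 3.11e-07, edgeR), and fell from 124 CPM with scrambled to 64.9 CPM with the G9a hairpins (-0.94 ± 0.05, adjusted p = 9.09e-15) and 100.2 CPM with the averaged SUV39H1 hairpins (-0.43 ± 0.05, adjusted p = 9.94e-09). Singly, NAMPT was at 115.2 CPM with SUV39H1 hairpin 2 and 85.3 CPM with hairpin 4. Those hairpins differed (-0.47 ± 0.06, hairpin 4 minus hairpin 2, adjusted p = 1.21e-07, edgeR). Of 8 tested genes of NAD synthesis from other precursors, 4 rose and 4 fell with the G9a hairpins (49.9% of all genes called), 3 rose and 4 fell with the SUV39H1 hairpins (67.8%), and 2 rose and 3 fell at 4 µM (19.9%). Of 11 NAD consumers, 0 were higher and 1 lower at 4 µM, 6 and 2 with the G9a hairpins, and 6 and 3 with the SUV39H1 hairpins, against the same shares of all genes. CD38, an NAD glycohydrolase, fell from 8.31 to 4.15 CPM at 4 µM (adjusted p = 1.42e-10, edgeR) and with the G9a hairpins (-0.34 ± 0.07, adjusted p = 0.000152), and rose with the SUV39H1 hairpins (0.57 ± 0.06, adjusted p = 1.43e-08). Its scrambled control, at 5.83 CPM, lay below DMSO (-0.49 ± 0.07, adjusted p = 1.14e-05), and its level with the SUV39H1 hairpins was 9.28 CPM.

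Interferon gamma type genes, the class to which IDO1 and WARS belong, were measured as regulators and targets (12 tested). With SUV39H1 hairpin 2, 9 were higher and 1 lower (median 2.36, where 67.1% of all genes were called), with hairpin 4, 8 and 1 (median 0.81, 60.9%), and between them 2 were higher and 10 lower with hairpin 4 (42.9%). GBP1 and GBP2, guanylate-binding proteins, were at 3.62 and 3.61 CPM with hairpin 2 against 0.0177 and 0.132 CPM with scrambled. The KYNU changes were 1.09 and 0.35 with hairpins 2 and 4, and those of WARS -0.22 and 0.47. With the G9a hairpins 3 were higher and 6 lower (median -0.20, 49.9% of all genes called), with CXCL10, a chemokine, at -1.09 ± 0.11 (adjusted p = 1.11e-08, edgeR). At 4 µM 5 were higher and 2 lower (median 0.50, 19.9% of all genes called), with CXCL10 at 2.03 ± 0.13 (adjusted p = 1.77e-12), while WARS was at -0.02. The controls of CXCL10 stood apart, at 6.09 CPM with scrambled and 2.77 CPM with DMSO (1.17 ± 0.14, adjusted p = 2.72e-07, edgeR). Its level with the G9a hairpins, 2.88 CPM, was thus below scrambled but near DMSO.

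Over the 8 group means of log2 CPM, KYNU and TDO2 were the most alike of the tested members (Pearson r = 0.869), and HAAO and QPRT the most opposed (r = -0.609). These are descriptions over 8 points that share controls and libraries. KYNU and TDO2 were singled out by their levels with UNC0638, which are among these points, so their likeness was partly set by that choice. Only KYNU and TDO2 spanned at least 2-fold between groups. Among 1678 and 1679 candidate genes, those most like KYNU were PADI2, a peptidylarginine deiminase (r = 0.966), the interferon-induced IFI27 (r = 0.953) and LAP3, a leucine aminopeptidase (r = 0.926). Among the 3 most like TDO2 were MS4A7, a membrane protein of macrophages (r = 0.914), and PKD1L1 (r = 0.912).

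**Figure D4:**
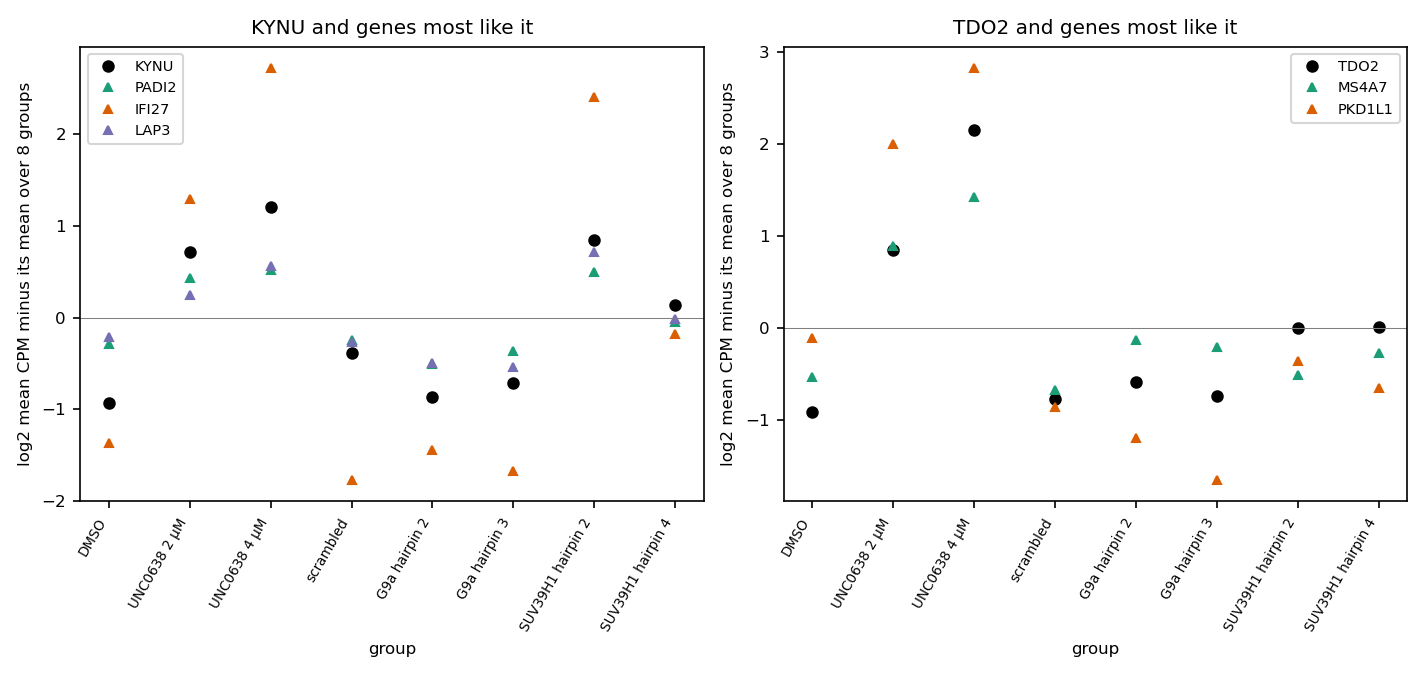
Group mean CPM relative to the gene's own mean over the 8 groups, on a log2 vertical axis, for KYNU and for TDO2 (circles) with the genes named as most like each over 8 group means (triangles). KYNU and its 3 genes lie above their own mean at both UNC0638 doses and with SUV39H1 hairpin 2, and TDO2 and its 2 genes are highest at 4 µM.

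Ordered by mean CPM, KYNU ran from DMSO (0.907 ± 0.285), G9a hairpin 2 (0.951 ± 0.191), G9a hairpin 3 (1.06 ± 0.0514) and scrambled (1.33 ± 0.323) to SUV39H1 hairpin 4 (1.90 ± 0.274), 2 µM (2.85 ± 0.0318), SUV39H1 hairpin 2 (3.11 ± 0.234) and 4 µM (3.99 ± 0.155). Only the steps from SUV39H1 hairpin 4 to 2 µM and from SUV39H1 hairpin 2 to 4 µM separated neighbours whose libraries did not overlap. For TDO2 the only such steps were those up to 2 µM and up to 4 µM, and the 6 groups below them overlapped with their neighbours, from 0.396 ± 0.0692 with DMSO to 0.752 ± 0.154 with SUV39H1 hairpin 4. WARS ran from 96.9 ± 1.22 with G9a hairpin 3 to 183.8 ± 3.28 with SUV39H1 hairpin 4, with DMSO (134.5 ± 5.59) next below it and not overlapping.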

How the data were processed

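RNA-seq of 24 U937 libraries (8 groups of 3) was made with a TruSeq RNA v2 kit, per the labels' protocols. The submitters' processing notes name STAR, featureCounts and hg19. The sources used here give neither tool versions nor settings nor how multiply mapping reads were handled. The deposited table holds whole-number counts for 55773 gene names and an other column, a summed gene length in bases, used only for levels per kilobase. A deposited repeat table was not used.

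Library totals were sums over all gene names (31545854 to 53803704). CPM were counts scaled to that total. Genes passing filterByExpr (minimum count 10, minimum total 15) numbered 20147. They were scaled by TMM and fitted with 1 mean per group over all 24 libraries by edgeR 4.0.16 (quasi-likelihood, R 4.3.3). P-values were Benjamini-Hochberg adjusted over all genes of a contrast and called under 0.05. The biological coefficient of variation was 4.63%.

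The members and lists were chosen with earlier results of these data known. Named genes were the 8 members, the 4 methyltransferase genes, up to 3 called genes of largest change per list and contrast, the 3 genes most like a member that spanned at least 2-fold (candidates had a mean of at least 2 CPM), and overlapping neighbours. Some genes of this rule and of the marker lists are not reported here. Of the listed genes, C9orf95 had no match in the table. Alternatives were RLE size factors, no filter, DESeq2 1.42.0, the compared libraries alone, the replicate number as a block, each library left out, and, added after seeing the data, library totals without scaling.

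On simulated counts with 50 genes changed per fold, the fit called 56% of those changed 1.2-fold, 84% of the 1.5-fold, 90% of the 2-fold and 100% of the 4-fold genes for the averaged G9a hairpins (19783 genes, 3.51% of calls false), and 50%, 78%, 90% and 98% for the averaged SUV39H1 hairpins (19771 genes, 4.24% false). Between the SUV39H1 hairpins it called 32%, 66%, 90% and 98% (19777 genes, 8.92% false). Far fewer genes were changed there than were called in the data (49.9%, 67.8% and 42.9% in the same order). These rates therefore need not hold for the real contrasts. Intervals and floors cover counting error only.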

Additional observations from a re-analysis of the deposited data

Results flagged for a closer look

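The effects of the 2 hairpins against SUV39H1 differed for 4 of the 7 tested members, by the test of the difference between the hairpins (edgeR, hairpin 4 minus hairpin 2, 3 libraries each). KYNU was lower with hairpin 4, with a log2 difference of -0.74 and all 3 libraries below those of hairpin 2. HAAO was higher with hairpin 4 by 0.47 in all 3 libraries, and its own changes from scrambled were -0.12 with hairpin 2 (adjusted p = 0.275) and 0.35 with hairpin 4 (adjusted p = 0.00138). QPRT was lower with hairpin 4 (-0.22), with overlapping libraries. WARS was higher with hairpin 4 by 0.68 in all 3 libraries, below scrambled with hairpin 2 and above it with hairpin 4. The myeloid marker sum and the RNA of SUV39H1, SUV39H2, EHMT1 and EHMT2 also differed between these hairpins, and their part in these differences was not tested.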

How the results depend on the processing

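Of 522 values of called members under the alternatives, 511 kept their direction and call and 0 reversed. The calls lost were KYNU with the G9a hairpins, TDO2 with the SUV39H1 hairpins and QPRT between the SUV39H1 hairpins, each when a single library was left out, as given beside those results. KYNU passed with SUV39H1 hairpin 4 with no filter (0.36, adjusted p = 0.0318), with library totals only (0.48, adjusted p = 0.00987), and without scrambled replicate 2 (0.57) or its own replicate 3 (0.45). With library totals only, HAAO passed for the averaged SUV39H1 hairpins (0.22, adjusted p = 0.0138), QPRT for hairpin 4 (0.20, adjusted p = 0.00690) and KMO for G9a against SUV39H1 hairpins (-0.17, adjusted p = 0.00325).

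Members that did not pass reversed 25 times, at sizes of at most 0.24. TDO2 with G9a hairpin 3 was -0.0078 by RLE and -0.0054 by DESeq2. KMO between the SUV39H1 hairpins was 0.00054 with no filter and 0.0056 with library totals, and WARS between the G9a hairpins was -0.0034 with library totals. With a library left out, TDO2 ranged from -0.042 to 0.21 with the averaged G9a hairpins, -0.093 to 0.33 with hairpin 2, -0.24 to 0.23 with hairpin 3, -0.41 to 0.10 between them and -0.16 to 0.22 between the SUV39H1 hairpins. Likewise AFMID ranged from -0.096 to 0.029 with the averaged G9a hairpins, -0.092 to 0.032 with hairpin 2, -0.099 to 0.027 with hairpin 3 and -0.021 to 0.014 between them. QPRT ranged from -0.051 to 0.0054 with the averaged G9a hairpins, and between those hairpins KMO from -0.059 to 0.0081 and WARS from -0.011 to 0.022.

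With the compared libraries alone, all-gene calls fell to 717 at 2 µM, 1993 at 4 µM, 236 between doses and 1 between the G9a hairpins, which gave 11 with no filter. Leaving out a library gave 995 to 2197 at 2 µM (the highest without DMSO replicate 1), 2690 to 5518 at 4 µM, 215 to 276 between doses and 0 to 2 between the G9a hairpins. For G9a against SUV39H1 hairpins the share of calls that were higher went from 50.2% to 37.1% with library totals, and for scrambled against DMSO from 47.4% to 37.4%.

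Same-numbered libraries of 2 groups deviated together with correlations of -0.093 to 0.23 and no pair of groups had all 3 above 0.1, so the numbers were not taken to pair. With the replicate block, KYNU passed with SUV39H1 hairpin 4 (0.35, adjusted p = 0.0406). No other member's call changed with the block. Depth limits IDO1 most, at 0 to 8 counts a library, and TDO2 and KYNU at low CPM.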
